A study of Mus musculus with 18 samples.

Results

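Naive pluripotency is the state of mouse embryonic stem cells (ESCs) that resembles the epiblast before implantation. It is held by a set of regulators around Pou5f1, Sox2 and Nanog that answer to the cytokine LIF, which acts through Stat3, and that are typically switched off as ESCs leave self-renewal. The genes described here are Klf2, Klf4 and Klf5, which are Kruppel-like zinc finger factors that bind GC-rich and CACCC sequences, Esrrb, an orphan nuclear receptor, Tbx3, a T-box factor, Tfcp2l1, a CP2 family factor downstream of LIF, Nr0b1 (Dax1), an orphan receptor that acts mainly as a corepressor, and Tcl1. Tcl1 is a co-activator of the Akt kinase and not a DNA-binding factor, so the group is one of naive state regulators and not of transcription factors alone.

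These 8 genes were chosen by name, through the sequence accession or platform annotation of their probes, among 19035 genes named on the larger of 2 mouse array products. The larger product, Mouse Whole Genome, carried 10 probes for all 8 genes (3 of them for Tbx3), and the smaller one, UniSet Mouse 20K I, carried 6 probes, with none named for Esrrb or Tbx3. The samples were MES3 ESCs, embryoid bodies (EBs) after 3 days, EBs after 7 days, and adult tissue cells whose tissue the labels do not name. MES3 is a line derived from a C57BLxCBA blastocyst, and it was kept on mitomycin-C inactivated mouse embryonic fibroblast feeders in serum with LIF and β-mercaptoethanol. EBs were clusters of excised colonies in suspension, in that medium without LIF and β-mercaptoethanol. UniSet 20K held ESC replicate 1, replicates 1 and 2 of each EB stage, and both adult tissue replicates. Mouse Whole Genome held ESC replicate 2 and the third replicate of each EB stage. Each ESC and EB sample was read on 2 arrays, and each adult sample on 1. Nothing in the labels tells if replicates came from separate cultures or animals, so p-values measure only the spread between these samples, which may be technical.

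Levels are log2 quantile-normalized intensities, comparable for 1 probe within 1 product only. On UniSet 20K, between 27.8% and 36.4% of probes on any ESC or EB array passed background, against 52.9% and 58.0% for adult tissue. On Mouse Whole Genome the range was 60.9% to 72.2%. The 2 arrays of ESC replicate 2 stood apart: 8.39% of probes above background on both differed by more than 2-fold between them, against 0.0753% to 1.1% for every other array pair. ESC markers fitted the labels only in part. Pou5f1 had a log2 level of 9.82 in ESC replicate 1, between 8.59 and 9.73 in EBs, and 4.71 and 4.39 in adult tissue. Sox2 was not above background on every array of ESC replicate 1 or of the 3-day EBs on UniSet 20K, although all 4 ESC markers (Pou5f1, Nanog, Sox2, Zfp42) were in all 3 samples on Mouse Whole Genome.

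**Figure D1:**
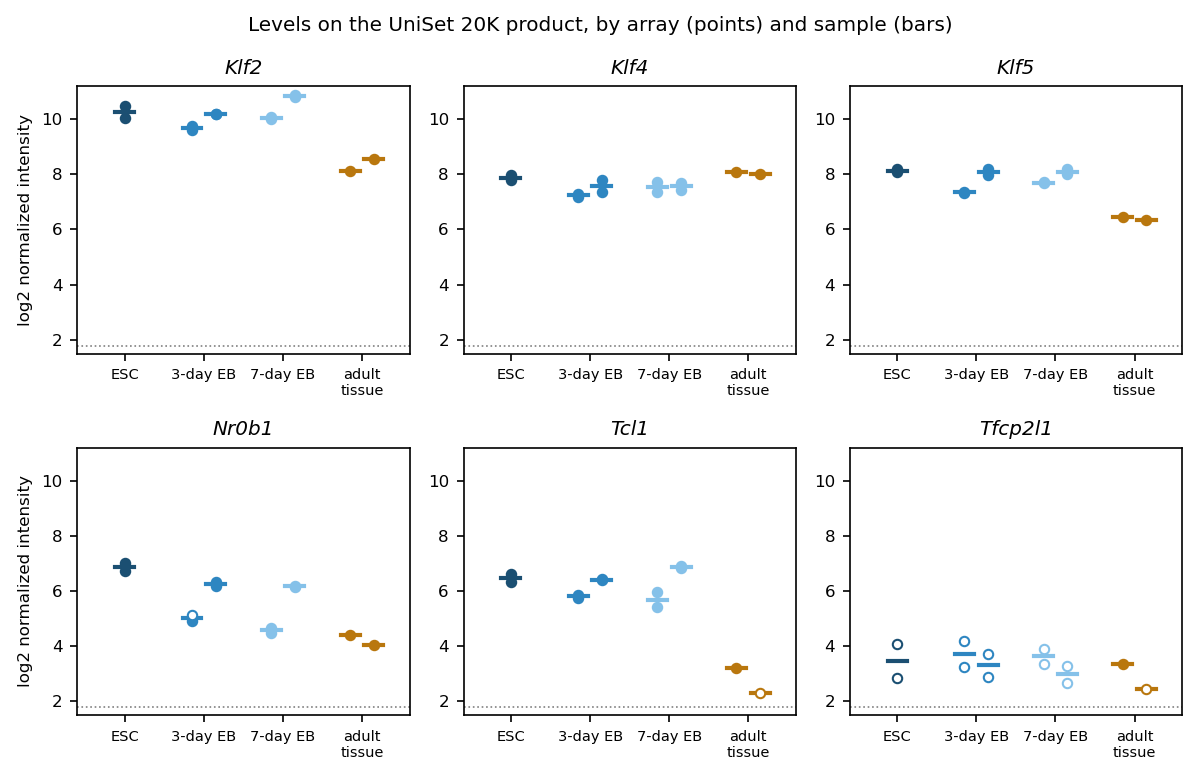
Log2 normalized intensity (y axis) of the 6 genes with a UniSet 20K probe in ESC, 3-day EB, 7-day EB and adult tissue; points are arrays, open where not above background, bars are samples, and the dotted line is the floor at 1.78. Tcl1 in adult tissue lies at 3.21 and 2.31, below every ESC and EB sample, and all 10 ESC and EB arrays of Tfcp2l1 are open.

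Tcl1, the Akt co-activator, showed the widest gap between cultured cells and adult tissue. Its raw intensities were 54.5 and 50.9 on the arrays of ESC replicate 1, between 24.5 and 52.8 on the 3-day EB arrays, and between 30.4 and 84.1 on the 7-day EB arrays, against 21.4 and 6.16 on the adult arrays. The second adult array was not above background. Normalized, Tcl1 stood at 6.46 in the ESC sample, 5.80 and 6.41 in 3-day EBs, 5.68 and 6.87 in 7-day EBs, and 3.21 and 2.31 in adult tissue. Every ESC and EB sample lay above both adult samples, while the ESC value lay within the range of the EB samples. On Mouse Whole Genome, Tcl1 was at 9.70 in ESC, 9.35 in 3-day EB and 9.74 in 7-day EB.

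Nr0b1, the corepressor, was the member with the largest fitted EB to ESC differences. Its raw intensities on UniSet 20K were 59.4 and 79.5 in ESC replicate 1, 16.9 and 16.4 in 3-day EB replicate 1, 45.1 and 41.7 in 3-day EB replicate 2, 19.6 and 19.1 in 7-day EB replicate 1, 50.8 and 47.7 in 7-day EB replicate 2, and 61.8 and 35.8 in adult tissue. One of the arrays of 3-day EB replicate 1 was not above background. The normalized levels were 6.85 in ESC, 5.02 and 6.26 in 3-day EBs, 4.58 and 6.17 in 7-day EBs, and 4.39 and 4.04 in adult tissue. Before normalization the adult arrays lay within the range of the ESC and EB arrays. After it, each of the 4 EB samples was below the ESC sample and above both adult samples. Mouse Whole Genome gave the same order, with 10.75 in ESC, 9.40 in 3-day EB and 8.79 in 7-day EB, and neither ESC array (10.98 and 10.51) overlapped the EB arrays (8.76 to 9.50).

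Klf2, the Kruppel-like factor best known in the endothelium and in naive ESCs, stayed bright in every sample. Its raw intensities were 645 and 925 in ESC replicate 1, between 385 and 744 on the 3-day EB arrays, between 586 and 1333 on the 7-day EB arrays, and 888 and 1046 in adult tissue. The adult arrays were brighter as a whole, and after normalization Klf2 stood at 10.27 in ESC, 9.67 and 10.18 in 3-day EBs, 10.05 and 10.83 in 7-day EBs, and 8.12 and 8.57 in adult tissue. Before normalization the ESC and EB arrays thus overlapped the adult arrays, and after it they did not. On Mouse Whole Genome the level was 12.95 in ESC, 12.80 in 3-day EB and 13.12 in 7-day EB.

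Klf4, a reprogramming factor that also acts in adult epithelia, had the opposite order towards adult tissue. Its levels were 7.87 in ESC, 7.23 and 7.58 in 3-day EBs, and 7.53 and 7.56 in 7-day EBs, against 8.09 and 7.997 in adult tissue. Both adult samples lay above every ESC and EB sample, and the 4 EB samples lay below the ESC sample. The raw intensities were further apart, at 873 and 698 on the adult arrays against 69.5 to 158 on the ESC and EB arrays. On Mouse Whole Genome Klf4 was at 11.36 in ESC, 11.05 in 3-day EB and 10.75 in 7-day EB.

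Klf5, which is active in the early embryo and in adult epithelia, was at 8.13 in ESC, 7.34 and 8.07 in 3-day EBs, 7.70 and 8.10 in 7-day EBs, and 6.45 and 6.35 in adult tissue. After normalization all 5 ESC and EB samples were above both adult samples. Before it the order was the reverse: raw intensities were 275 and 217 on the adult arrays, against 74.0 to 205 on the ESC and EB arrays. Mouse Whole Genome placed it at 9.78 in ESC, 10.22 in 3-day EB and 10.40 in 7-day EB, an order opposite to UniSet 20K between ESC and EBs. The ESC value there is the mean of arrays at 10.75 and 8.80, which lie above and below all 4 EB arrays (10.03 to 10.44).

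Upstream sequences are shown for Tcl1, Nr0b1 and Klf2, the members with the largest ESC to adult differences. They are the 250 bases before the gene start in RefSeq on GRCm38.p6, written 5′ to 3′ on the gene's strand, with capitals on the Kruppel-like factor core CACCC in either orientation (GGGTG on the other strand). Windows were present for 6 of the 8 members, 7 windows in all because Esrrb has 2.
Tcl1, chr12:105222738-105222987, minus strand: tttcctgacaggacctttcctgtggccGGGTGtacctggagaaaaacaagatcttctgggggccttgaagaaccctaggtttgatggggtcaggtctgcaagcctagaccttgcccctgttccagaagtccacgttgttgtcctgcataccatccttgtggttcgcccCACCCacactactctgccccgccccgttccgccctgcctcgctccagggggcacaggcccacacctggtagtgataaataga
Nr0b1, chrX:86191525-86191774, plus strand: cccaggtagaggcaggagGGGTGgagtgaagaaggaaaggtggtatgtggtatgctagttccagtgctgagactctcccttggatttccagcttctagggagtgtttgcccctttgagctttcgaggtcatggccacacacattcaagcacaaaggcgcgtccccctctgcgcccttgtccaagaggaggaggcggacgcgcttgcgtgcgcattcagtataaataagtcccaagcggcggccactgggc
Klf2, chr8:72318812-72319061, plus strand: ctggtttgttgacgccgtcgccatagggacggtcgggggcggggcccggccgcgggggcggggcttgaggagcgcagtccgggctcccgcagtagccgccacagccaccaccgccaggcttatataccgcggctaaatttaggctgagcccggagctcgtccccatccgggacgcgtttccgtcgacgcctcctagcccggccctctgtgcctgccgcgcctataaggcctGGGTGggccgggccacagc
The core was found in 5 of the 7 member windows and in 52.0% of all 32851 windows of this length. The orphan receptor half-site AAGGTCA (4.08% of all windows) and the octamer ATGCAAAT (1.6%) were in none of the 7, and the STAT motif TTCNNNGAA (7.02%) was in 1, the first Esrrb window. Both strands were searched, and no 2 of these motifs overlapped in the windows printed. Klf4 (chr4:55527137-55532475), Klf5 (chr14:99298691-99313412), Tbx3 (chr5:119670534-119684724), Esrrb (chr12:86361117-86521628) and Tfcp2l1 (chr1:118627923-118685168) are protein-coding genes, as are Tcl1 (chr12:105216753-105222737), Nr0b1 (chrX:86191775-86195947) and Klf2 (chr8:72319062-72321654), all given on GRCm38.p6.

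Esrrb and Tbx3 could be read on Mouse Whole Genome alone, and Tfcp2l1 was informative there alone, so these 3 genes have 1 sample per group and no test. Esrrb was bright in all 3 samples. Its raw intensities were 1474 and 466 on the ESC arrays, 1000 and 1191 on the 3-day EB arrays, and 1583 and 1533 on the 7-day EB arrays. The normalized levels were 10.12 in ESC, 10.00 in 3-day EB and 10.41 in 7-day EB, and the ESC arrays, at 10.64 and 9.60, enclosed all 4 EB arrays. ESC could therefore not be told apart from either EB stage for Esrrb. Both 7-day arrays (10.46 and 10.37) lay above both 3-day arrays (9.93 and 10.06), a difference of 0.42 that shrank to 0.09 with median normalization.

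Tbx3, which in the embryo also acts in extra-embryonic endoderm and limb, was higher at 7 days with each of its 3 probes. The brightest probe, GE1551668, had a level of 7.93 in ESC, 8.22 in 3-day EB and 9.43 in 7-day EB. Its raw intensities were 318 and 109 on the ESC arrays, 260 and 335 on the 3-day EB arrays, and 821 and 822 on the 7-day EB arrays. Probe GE1419526 was at 5.76, 6.47 and 7.42 in that order of stages, and probe GE1426190 at 7.31, 6.86 and 7.96. The 7-day arrays exceeded all ESC and 3-day arrays with all 3 probes. The 7-day over ESC difference was 1.502 on the log2 scale for the brightest probe (2.83-fold), with 1.66 and 0.65 for the other probes. These values depended on which of the discordant arrays of ESC replicate 2 was used: with either one left out they ran from 1.08 to 1.92 for GE1551668, from 1.01 to 2.30 for GE1419526 and from 0.41 to 0.89 for GE1426190. Between 3-day EB and ESC the probes disagreed in direction (0.29, 0.70 and -0.46), and GE1551668 gave -0.14 without the second of these ESC arrays.

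Tfcp2l1 was below background on all 10 ESC and EB arrays of UniSet 20K, with raw intensities of 5.98 to 12.1, and above it on 1 of 2 adult arrays. On Mouse Whole Genome it was above background on all 6 arrays. Its raw intensities there were 121 and 66.5 in ESC, 79.1 and 73.4 in 3-day EB, and 282 and 256 in 7-day EB. The levels of 6.88, 6.33 and 7.77 put 7-day EB above ESC by 0.89 and above 3-day EB by 1.44 on the log2 scale, with no overlap between arrays of different stages. The first of these differences ran from 0.80 to 0.98 and the second from 1.28 to 1.46 over the alternatives. The 7-day arrays of this product were analysed on another day than its ESC and 3-day arrays, per the file headers, so for Tbx3, Tfcp2l1 and Esrrb the 7-day stage and that day cannot be told apart.

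**Figure D2:**
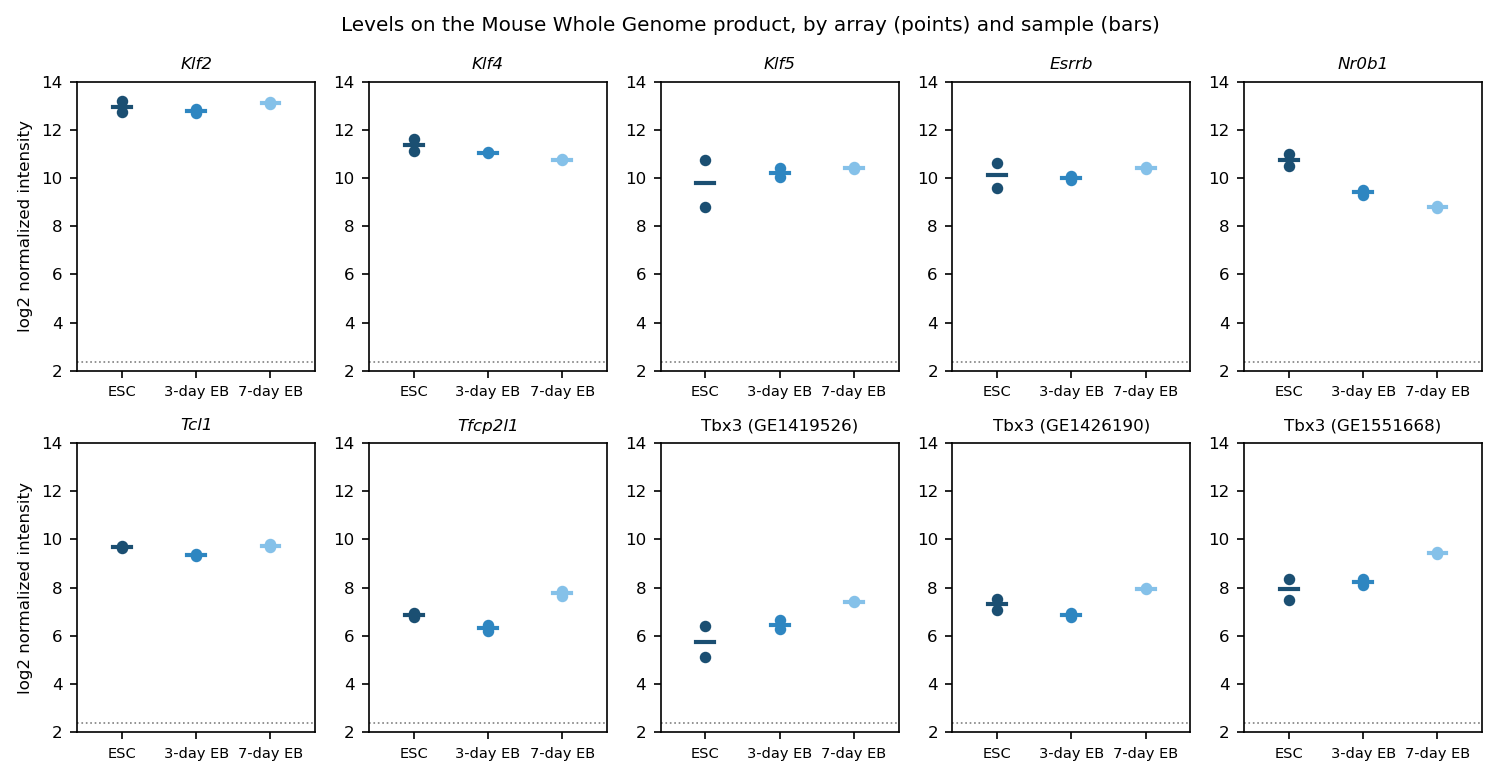
Log2 normalized intensity (y axis) of the 10 member probes on Mouse Whole Genome in ESC, 3-day EB and 7-day EB, 1 sample each; points are arrays, bars are samples, and the dotted line is the floor at 2.39. The ESC arrays of Klf5 (10.75 and 8.80) and Esrrb (10.64 and 9.60) lie far apart, and the 7-day arrays of Tbx3 and Tfcp2l1 lie above the others.

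Over all genes of Mouse Whole Genome, 19.1% differed by more than 2-fold between 3-day EB and ESC, 22% between 7-day EB and ESC, and 14.8% between 7-day and 3-day EB. Of the 8 members, each read by its brightest probe, 1 passed 2-fold between 3-day EB and ESC, Nr0b1, lower like 8.62% of all genes. Between 7-day EB and ESC 2 passed, Tbx3, higher like 12.4%, and Nr0b1, lower like 9.54%. Between 7-day and 3-day EB, 2 passed, Tbx3 and Tfcp2l1, both higher at 7 days like 7.92%. With 8 members these counts are near the background.

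The question of whether EB formation lowered the naive regulators was tested over both products, with limma on 8 samples, the product as a term, and Benjamini-Hochberg adjustment over 6365 genes. The filter kept genes above background on every array of at least 1 group, and 5 of the 8 members passed it: Klf2, Klf4, Klf5, Nr0b1 and Tcl1. None of the 5 passed an adjusted p of 0.05 in 3-day EB against ESC, where 2.81% of all genes did, or in 7-day EB against ESC, where 5.09% did. In 7-day against 3-day EB no gene of the array passed (0% of 6365, with 942 at an unadjusted p under 0.05). The median over the 5 members was -0.34, -0.10 and 0.19 in these comparisons, beside 0.06, 0.03 and -0.04 over all genes tested. The first 2 comparisons share the ESC samples.

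Nr0b1 came nearest to the threshold. It was 3.19-fold lower in 7-day EB than in ESC (log2 difference -1.67 ± 0.50 SE, limma adjusted p = 0.105, 95% interval -2.83 to -0.51) and 2.45-fold lower in 3-day EB (-1.29 ± 0.50, adjusted p = 0.221, interval -2.45 to -0.13). The difference was of similar size within each product, -1.48 on UniSet 20K and -1.95 on Mouse Whole Genome for 7-day EB, and -1.21 and -1.34 for 3-day EB. All 3 EB samples of either stage lay below the ESC sample of their product. Without 7-day EB replicate 2 the 7-day difference was -2.12 with an adjusted p of 0.0223. With all samples kept and each array as an observation within its sample, the adjusted p was 0.00816, so the call turned on that sample and on the model.

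Klf4 was also below its product's ESC sample in 3 of 3 samples of either stage, by less. The difference was -0.42 ± 0.20 in 3-day EB (limma adjusted p = 0.308, 95% interval -0.90 to 0.05) and -0.43 ± 0.20 in 7-day EB (adjusted p = 0.263, interval -0.90 to 0.04). Within Mouse Whole Genome the 3-day difference of Klf4 was -0.31. It was 0.005 with median normalization and -0.05 without the first array of ESC replicate 2. For Klf2 the intervals ran from -0.91 to 0.37 in 3-day EB and from -0.46 to 0.82 in 7-day EB. For Tcl1 they ran from -1.16 to 0.48 and from -0.92 to 0.72, and for Klf5 from -0.74 to 0.68 and from -0.55 to 0.86. A level more than 2-fold below ESC lay, for Klf2, Klf4 and Klf5, outside these intervals at both stages, while for Tcl1 at 3 days it did not. Klf5 changed direction with single samples: its 7-day difference was 0.16 over both products, -0.23 without ESC replicate 2 and 0.63 without ESC replicate 1.

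**Figure D3:**
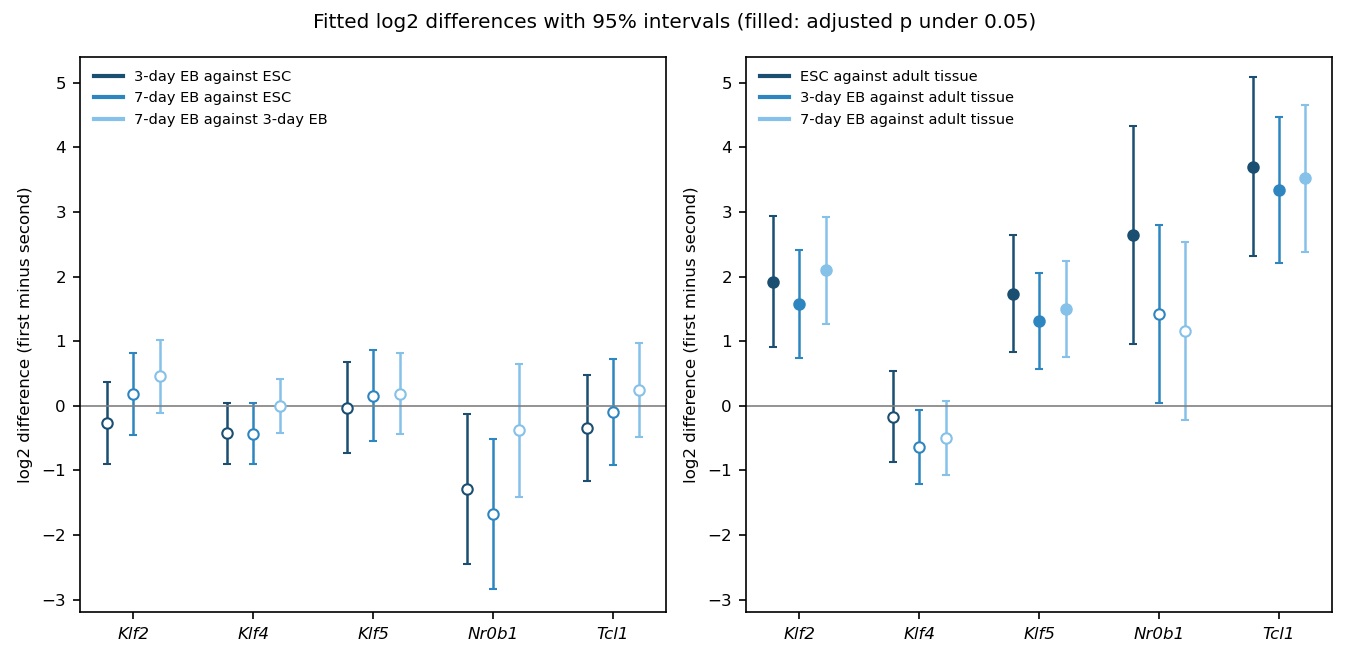
Fitted log2 difference (y axis) of the 5 tested members for 3 EB comparisons (left) and 3 comparisons against adult tissue (right), each with its 95% interval; filled points have an adjusted p under 0.05. No EB point is filled, and Nr0b1 against ESC is the lowest at -1.29 and -1.67, while Tcl1 against adult tissue reaches 3.70.

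Against adult tissue the members split. In ESC, 4 of the 5 tested members were higher than in adult tissue and none was lower, where 51.8% of 10131 genes passed in either direction and 25.1% were higher and 26.7% lower. Tcl1 was higher in ESC (log2 difference 3.70 ± 0.59, limma adjusted p = 0.00197), with no fold given because 1 of its 2 adult arrays was not above background. Nr0b1 was 6.22-fold higher (2.64 ± 0.72, adjusted p = 0.0185), Klf2 3.79-fold (1.92 ± 0.43, adjusted p = 0.00872) and Klf5 3.33-fold (1.73 ± 0.39, adjusted p = 0.00823). Klf4 differed by -0.17 ± 0.30 (adjusted p = 0.655, 95% interval -0.88 to 0.53). This comparison has 1 ESC sample, which is assumed to vary like the other groups, and Tcl1 was above background on 1 of the 2 adult arrays. Tcl1 passed the filter through ESC and EBs, where it was high, and not through adult tissue. The size of its difference depends on the scale used for dim values: it was 2.18 with log2(value + 16), the lowest of 14 alternatives, and passed the threshold in all 14. For Nr0b1 that scale gave 1.93. Without adult tissue replicate 1, Klf2 (adjusted p = 0.0525) and Nr0b1 (adjusted p = 0.0735) no longer passed, and Nr0b1 also missed it without adult tissue replicate 2 (adjusted p = 0.104).

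In 3-day EB against adult tissue, Tcl1 (3.34 ± 0.48, limma adjusted p = 0.000827), Klf2 (1.58 ± 0.35, adjusted p = 0.00645) and Klf5 (1.31 ± 0.32, adjusted p = 0.00873) were higher, 3 of 5, where 62% of genes passed, 30.4% higher and 31.5% lower. The same 3 genes were higher in 7-day EB, Tcl1 by 3.52 ± 0.48 (adjusted p = 0.000617), Klf2 by 2.10 ± 0.35 (adjusted p = 0.00167) and Klf5 by 1.502 ± 0.32 (adjusted p = 0.0047), where 61.6% passed, 29.3% higher and 32.2% lower. Nr0b1 gave 1.42 ± 0.59 in 3-day EB (adjusted p = 0.068) and 1.16 ± 0.59 in 7-day EB (adjusted p = 0.123). Klf4 gave -0.64 ± 0.25 (adjusted p = 0.054) and -0.50 ± 0.25 (adjusted p = 0.113). Single samples or the treatment of arrays decided several of these calls. At 3 days Klf5 missed the threshold without 3-day EB replicate 2 (0.95, adjusted p = 0.051) or adult tissue replicate 2 (adjusted p = 0.0573), and Klf2 without adult tissue replicate 1 (adjusted p = 0.0561). Nr0b1 passed at 3 days without 3-day EB replicate 1 (2.04, adjusted p = 0.0286) or either 7-day EB sample (adjusted p = 0.0252), and at 7 days without 7-day EB replicate 1 (1.96, adjusted p = 0.0188). With each array as an observation within its sample, Nr0b1 (adjusted p = 0.0327) and Klf4 (adjusted p = 0.0338) both passed at 3 days. The 3 comparisons share the adult samples, whose arrays were analysed on a day of their own, so tissue and day cannot be told apart.

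The scaling of the brighter adult arrays bears on Klf2, Klf4, Klf5 and Nr0b1. Centring each array on its median moved the median of all genes against adult tissue to -0.36, -0.48 and -0.49 for ESC, 3-day EB and 7-day EB, against 0.04, -0.0046 and -0.04 with quantile normalization. The share of higher genes among those called then fell to 35.0%, 32.3% and 32.8%, against 48.5%, 49.1% and 47.7%. Under it Klf4 was lower in EBs than in adult tissue (-1.41 with adjusted p = 0.00142 at 3 days, -1.25 with adjusted p = 0.0027 at 7 days), as it was with log2(value + 16) (adjusted p = 0.0179 and 0.0459). With median centring Klf5 no longer passed in EBs (0.57 and 0.78), and Klf2 no longer passed in 3-day EB (0.93, adjusted p = 0.0661). Nr0b1 fell to 2.28, 0.90 and 0.78 for ESC, 3-day EB and 7-day EB, from 2.64, 1.42 and 1.16. Tcl1 gave 3.77, 3.22 and 3.50 under median centring, and 2.18, 1.89 and 2.04 with log2(value + 16), where it remained past the threshold.

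On UniSet 20K, replicate 2 lay above replicate 1 for all 5 tested members at both EB stages. In 7-day EB replicate 2 Tcl1 was at 6.87, Nr0b1 at 6.17 and Klf2 at 10.83, against 5.68, 4.58 and 10.05 in replicate 1, while Klf4 was at 7.56 and 7.53 and Klf5 at 8.10 and 7.70. In 3-day EBs Nr0b1 was at 6.26 in replicate 2 and 5.02 in replicate 1, Klf5 at 8.07 and 7.34, Tcl1 at 6.41 and 5.80, Klf2 at 10.18 and 9.67, and Klf4 at 7.58 and 7.23. Over the 8 ESC and EB samples, with each product's mean removed, Pearson's r was 0.87 for Klf2 with Tcl1, 0.83 for Klf4 with Nr0b1 and 0.69 for Klf2 with Klf5, and 0.15 for Klf4 with Klf5. These are descriptions over 8 points that share 2 products. By the same measure among 5693 other genes, the genes most like Nr0b1 included Zfp819 (0.99) and Phc1 (0.98), and the 3 most like Tcl1 were Mybl2 (0.95), Acp6 (0.93) and Ano9 (0.93). Phc1, for example, was at 10.12 in ESC, 8.97 and 9.55 in 3-day EBs and 8.38 and 9.66 in 7-day EBs on UniSet 20K. Klf2 was most like 1810037I17Rik (0.96), Appl1 (0.94) and Acp6 (0.94). Klf4 was most like Hsd17b10 (0.97), Nron (0.97) and Nfu1 (0.96), and Klf5 most like Cox8a (0.96), Tango6 (0.89) and Umps (0.89).

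Markers of other cells moved with the stages, and some of the lists with these replicates. Summed normalized intensity of 14 feeder fibroblast markers on UniSet 20K was 3350 in ESC, 143 and 486 in 3-day EBs, 492 and 143 in 7-day EBs, and 4486 and 3948 in adult tissue. On Mouse Whole Genome it was 25080 in ESC, 1392 in 3-day EB and 3222 in 7-day EB. In the fit, 7 of 12 tested feeder markers fell in 3-day EB and 8 of 12 in 7-day EB, none rising. Of all 6365 genes, 137 and 211 fell in these comparisons. Only 1 of the 14 feeder markers was above background on every array of 3-day EB replicate 1 or 7-day EB replicate 2. Nearly all tested feeder markers thus passed the filter through ESC alone, where they were high, so these falls carry no weight. Visceral and primitive endoderm markers (11 on UniSet 20K) summed to 166 in ESC, 424 and 139 in 3-day EBs, 1151 and 252 in 7-day EBs, and 804 and 1103 in adult tissue. Trophectoderm markers (8) summed to 312 in ESC, 1454 and 601 in 3-day EBs, 1733 and 712 in 7-day EBs, and 842 and 706 in adult tissue. In ESC, both 3-day EBs and 7-day EB replicate 2, only 2 of these 8 were above background on every array, Krt7 and Krt18. Cdx2, Eomes, Elf5 and Krt8 were so in no UniSet 20K sample. Krt18 was the brightest in ESC and EBs. Its levels of 7.80 in ESC, 10.35 and 8.78 in 3-day EBs, and 10.39 and 8.96 in 7-day EBs set most of these sums. Within either EB stage the replicate with the lower endoderm and trophectoderm sums, replicate 2, had the higher level of all 5 tested members. Endothelial sums were lower in replicate 2 as well. The feeder sums were lower in replicate 1 at 3 days and in replicate 2 at 7 days. Simple epithelium sums (6 markers) also changed order, with 1628 and 1337 in replicates 1 and 2 at 3 days, and 1435 and 1667 at 7 days. In total RNA of mixed cells, fewer cells of a type and less RNA per cell cannot be told apart, and the part of these other cells in the member values was not tested.

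**Figure D4:**
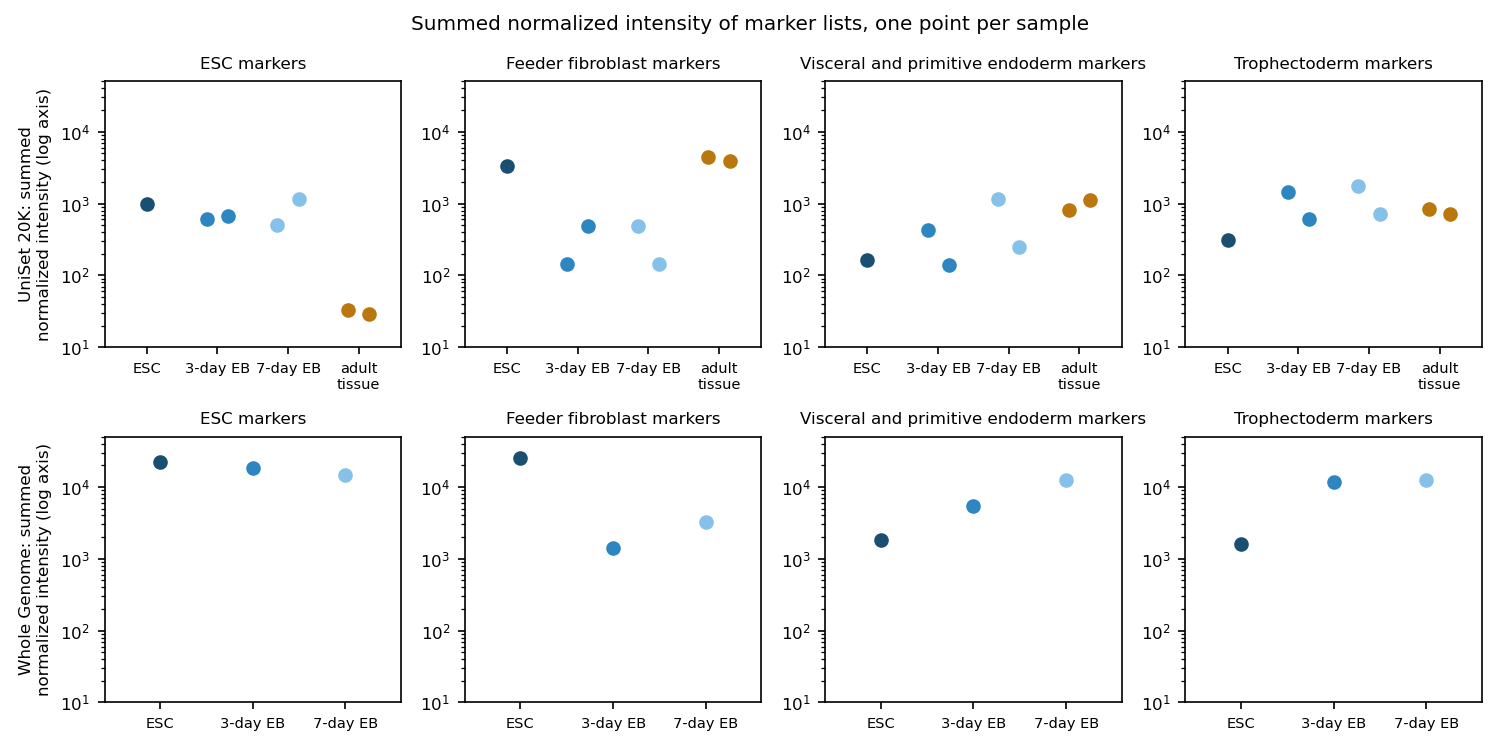
Summed normalized intensity (y axis, log scale) of ESC, feeder fibroblast, visceral and primitive endoderm, and trophectoderm marker lists, 1 point per sample, for UniSet 20K (top) and Mouse Whole Genome (bottom). The feeder sum is 3350 in ESC against at most 492 in EBs on UniSet 20K, and the endoderm and trophectoderm sums are lowest in ESC on Mouse Whole Genome.

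Other genes of the network gave the setting for these members. Of 12 core network genes, 10 could be tested. In 7-day EB against ESC 1 of them rose and none fell, where 113 of all 6365 genes rose and 211 fell. The core network median was -0.42 beside 0.03 over all genes. The 1 was Sall4, a zinc finger partner of Pou5f1, with 1.22 (limma adjusted p = 0.0128). Pou5f1 itself gave -0.72 (adjusted p = 0.233), Sox2 1.27 (0.1004) and Dppa2 -0.92 (0.224). Sox2 passed the filter through the 7-day EBs alone, where it was high, so its rise carries no weight. In 3-day EB none of the 10 passed, and the median was -0.23. Against adult tissue 8 of 10 were higher in ESC, in 3-day EB and in 7-day EB, with medians of 3.34, 3.46 and 3.25. Of all genes, 25.1%, 30.4% and 29.3% were called higher in these comparisons, the first of which has 1 ESC sample. Sox2, counted among the 8, was not above background in adult tissue, nor on every array of ESC replicate 1 or the 3-day EBs. Dppa2 and Dppa4 lay at the floor of 1.78 in adult tissue replicate 1. Such genes passed the filter through cultured cells, where they were high, so these counts and medians carry no weight. Pou5f1, which was above background on both adult arrays, was higher by 5.26, 4.52 and 4.61 in these comparisons.

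Of 12 other naive state genes 6 were tested, and none passed between EBs and ESC (medians of 0.39 in 3-day EB and 0.69 in 7-day EB). By 7 days Pecam1, a surface protein of naive ESCs and endothelium, gave 1.13 (limma adjusted p = 0.0863), Sox15 1.22 (0.117), Fbxo15 0.66 (0.329) and Dppa3 0.71 (0.431). On UniSet 20K Pecam1 was not above background on every array of ESC replicate 1 or of the 3-day EBs. It passed the filter through the 7-day EBs alone, where it was high, so its rise carries no weight. Endothelial markers, of which Pecam1 is one, summed to 155 in ESC, 168 to 186 in 3-day EBs and 211 to 299 in 7-day EBs on UniSet 20K, and their part was not tested. Against adult tissue 5 of 6 were higher in 3-day EB and 6 of 6 in 7-day EB, beside 30.4% and 29.3% of all genes. For ESC, with 1 sample, the median difference was 4.29. Zfp42 and Pecam1 were above background in neither adult sample, and Dppa3 lay at the floor of 1.78 in both. Such genes passed the filter through cultured cells, where they were high, so these counts and this median carry no weight.

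Of 11 formative and primed epiblast genes, which take over as naive cells advance, 5 were tested. In 7-day EB against ESC 2 of these fell (median -1.31), where 211 of all 6365 genes fell (median 0.03). The 2 were Dnmt3a, a DNA methyltransferase, with -2.33 (limma adjusted p = 0.0121), and Zic2, with -1.40 (0.0369). Dnmt3b gave -1.31 (0.0687) and Foxd3 -0.42 (0.325). In 3-day EB none of the 5 passed (median -0.95).

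None of the tested genes of the LIF and Stat3 pathway (5 of 10), of the Akt pathway (3 of 10), of 14 other Kruppel-like factors (6) or of 17 close relatives of the remaining members (3) passed in any EB comparison. In 7-day EB against ESC, Stat3, the effector of LIF, gave 0.33 (limma adjusted p = 0.515) and Il6st, its receptor subunit, -0.31 (0.361). Akt1, the kinase that Tcl1 activates, gave -0.33 (adjusted p = 0.58). Klf6 gave 0.82 (0.307), Klf9 -0.78 (0.281) and Tcl1b1, a paralogue of Tcl1, -0.57 (0.157). Klf6 was not above background on either ESC array of the smaller product. It passed the filter through EBs alone, where it was high, so its rise carries no weight. Against adult tissue Stat3 was higher in ESC by 2.14 (adjusted p = 0.00137), the 1 of 6 tested LIF pathway genes to be so. Pim1, a kinase gene induced by Stat3 and named here after its value was seen, was the 1 called lower (adjusted p = 0.00747). It was not above background on either ESC array, and only 1 adult sample had a value. Of 4 tested Akt pathway genes 1 was higher in ESC and 2 were lower. Over all genes 25.1% were higher in ESC and 26.7% lower. Of 8 tested Kruppel-like factors 2 were called higher in ESC, Klf6 and Klf3, the second named after its value was seen. Klf3 stood at 6.37 in ESC, against the floor of 1.78 in both adult samples, so no fold is given. Klf6 was not above background on any ESC or adult array, so no difference is given.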

How the data were processed

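Total RNA was amplified linearly and read with Cy5 on single-colour arrays, per the labels' protocols. The deposited scanner exports give 1 raw intensity per spot (software version 4.1.0.29054) and an intensity that the authors normalized to the array median, per the file headers. Raw intensities, some below 0 and so already background-subtracted, were used. Deposited whole-series tables were not used because their values disagreed with the exports by probe.

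Masked, contaminated and irregular spots were left out. Values were quantile-normalized within each product, raised to the median negative control (3.43 on UniSet 20K, 5.23 on Mouse Whole Genome), put on the log2 scale and averaged over a sample's arrays. The brightest probe stood for its gene, out of 19758 shared probes, of which 15837 carried 1 symbol. Tests used limma 3.58.1 in R 4.3.3 (lmFit, eBayes, Benjamini-Hochberg, adjusted p under 0.05). The EB fit had 8 samples, the product as a term and 4 residual degrees of freedom, and the adult fit 7 UniSet 20K samples and 3. The scripts were tested on simulated data. The number of arrays limits the precision.

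Members and lists were chosen with earlier results of these data known. All 8 members are named, the 3 genes most correlated with each tested member, and from each list up to 4 with the smallest p in 7-day EB against ESC. A few genes that this rule names are not reported here. Alternatives covered normalization, dim probes, floor, spots, probe choice, single samples, product, analysis day, pairing and arrays. The 2 array omissions in ESC replicate 2 were chosen after its arrays were seen to differ.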

Additional observations from a re-analysis of the deposited data

How the results depend on the processing

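Most alternatives kept the counts of called members within 1.5 times. In 7-day EB against ESC 1 member, Nr0b1, passed with the replicate block (-2.24, adjusted p = 0.0241) and with each array as an observation (adjusted p = 0.00816); with the latter 1 passed in 3-day EB against ESC (Nr0b1, adjusted p = 0.0426) and 5 against adult tissue in 3-day EB. Leaving out single samples gave 0 to 1 in 7-day EB against ESC, 2 to 4 in ESC against adult tissue, 2 to 4 in 3-day EB and 3 to 4 in 7-day EB against adult tissue, and 0 otherwise.

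In the fit over both products, directions turned only where no call was made. In 7-day EB against ESC, Klf2 (0.18) was -0.10 with median normalization and also with the authors' normalized intensities, -0.18 with the replicate block, and -0.025 (without 7-day EB replicate 2) to 0.37 over single-sample omissions. Klf5 (0.16) was -0.23 on UniSet 20K alone, -0.52 with the block, -0.28 without the second array of ESC replicate 2, and -0.23 (without ESC replicate 2) to 0.63 over omissions. Tcl1 (-0.10) ranged from -0.37 to 0.22 (without 7-day EB replicate 1). In 3-day EB against ESC, Klf5 (-0.03) was 0.41 without the first array of ESC replicate 2, and -0.42 to 0.44 over omissions, being 0.19 without 3-day EB replicate 1. In 7-day against 3-day EB, omissions gave -0.054 to 0.34 for Klf5 (0.19), -0.059 to 0.59 for Tcl1 (0.24), -0.87 to 0.011 for Nr0b1 (-0.38) and -0.14 to 0.12 for Klf4 (-0.007). Klf4 was also 0.12 with analysis day as a term and 0.14 on UniSet 20K alone. Within the Mouse Whole Genome product, with no test, 11 of 30 differences turned under at least 1 alternative. Without the second array of ESC replicate 2, Klf5 was -0.35 at 7 days and -0.53 at 3 days against ESC (0.62 and 0.44 reported), Esrrb -0.22 at 7 days (0.30) and Tbx3 probe GE1551668 -0.14 at 3 days (0.29). Without the first, Esrrb was 0.40 at 3 days (-0.12). With median normalization Klf2 was -0.44 in 7-day against 3-day EB (0.32). The other turned differences were at most 0.31 in size as reported. The cause was not tested.

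Replicate numbers were used as a block although they share only a number (deviations of same-numbered samples correlated over genes by 0.32 between EB stages and by 0.03 and 0.06 with adult tissue). With the block, Nr0b1 also passed in 3-day EB against adult tissue (1.42, adjusted p = 0.0369). Counts of all called genes ranged from 0 to 527 in 3-day EB against ESC (179 in the reported fit), 1 to 755 in 7-day EB against ESC (324) and 0 to 183 in 7-day against 3-day EB (0). Without ESC replicate 2 they were 1 and 24 in the first 2, and without ESC replicate 1 they were 8 and 29. In the same 2 comparisons they were 75 and 136 with no filter, 0 and 1 on UniSet 20K alone, and 68 and 161 with the block (12 in 7-day against 3-day EB). Other single omissions gave 63 (3-day EB replicate 1), 6 (the third 3-day EB sample) and 312 (7-day EB replicate 2) in the first. In the second they gave 134 (3-day EB replicate 3), 127 (7-day EB replicate 1) and 86 (without the third 7-day EB sample), where analysis day as a term gave 88. Without 7-day EB replicate 2, 108 passed in 7-day against 3-day EB. A random slide block was not run because each slide held 1 array. Signal over background limits the UniSet 20K values: the median probe was 2.06 to 3.09 times the negative control on ESC and EB arrays and 7.29 to 10.9 times on adult arrays.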
